A study of Mus musculus with 11 samples.

Results

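The insulin-like growth factor (IGF) system was followed through 10 genes of the muscle spindle transcriptome, taken by symbol from the 22384 genes of the deposited table: the ligands Igf1 and Igf2, the receptors Igf1r and Igf2r, and the binding proteins Igfbp2, Igfbp3, Igfbp4, Igfbp5, Igfbp6 and Igfbp7. All 10 were found and passed the minimum mean count. The study compared intact muscle spindles, the stretch receptors of skeletal muscle, with extrafusal fibers lying next to them in the mouse deep masseter, a jaw muscle rich in spindles. Every mouse carried Piezo2 EGFP-IRES-Cre and a Rosa26 tdTomato reporter, in both groups, and spindles were dissected under fluorescence. In these mice tdTomato also marks intrafusal fibers and capsule cells, so the color located spindles and did not select a cell type. There were 5 spindle and 6 muscle libraries, 1 of each tissue from mice 9, 10, 12, 13 and 16, and a muscle library alone from mouse 11. The mouse was read from the number in each label. The Piezo2 line is a B6(SJL) stock and the reporter line a B6.Cg stock, and the age and sex of the mice used for RNA-seq are not given in the sources used here.

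IGF1 and IGF2 are secreted peptides that activate the IGF1R tyrosine kinase, which signals through insulin receptor substrates to PI3K, Akt and mTOR and to Ras. In skeletal muscle this pathway is known for fiber growth and for restraining FoxO-driven protein breakdown. IGF2R is not a kinase. It binds IGF2 and carries it to lysosomes. The IGF binding proteins hold ligand in the extracellular space, where proteases can release it. IGFBP7 binds IGFs with much lower affinity than the others.

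Of the 10 genes, 4 were called higher in spindles (Igf1, Igfbp3, Igfbp4 and Igfbp6), 0 were called lower and 6 were not called. The test was edgeR's quasi-likelihood test, and a call required a Benjamini-Hochberg adjusted p of 0.05 or less over all 22384 genes, a log2 fold change of 1 or more in size, and a normalized count averaging 5 or more over the libraries. By the same rule 11.0% of all genes were called higher and 1.80% lower. The 10 genes are well expressed, and among the 8635 genes at or above the mean level of the least abundant of them (Igfbp2) 5.22% were called higher and 3.21% lower. By adjusted p alone, 6 of the 10 were higher and 1 was lower, beside 23.6% and 15.0% of all genes and 13.2% and 35.2% of the abundant ones. The spindle libraries lay above every muscle library for 6 of the 10, beside 9.15% of all genes and 8.18% of the abundant ones. The median log2 fold change was 0.76 over the 10 genes, 0.29 over all genes and -0.22 over the abundant ones. In bulk tissue a difference in the number of cells of a type and a difference in RNA per cell cannot be told apart.

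**Figure D1:**
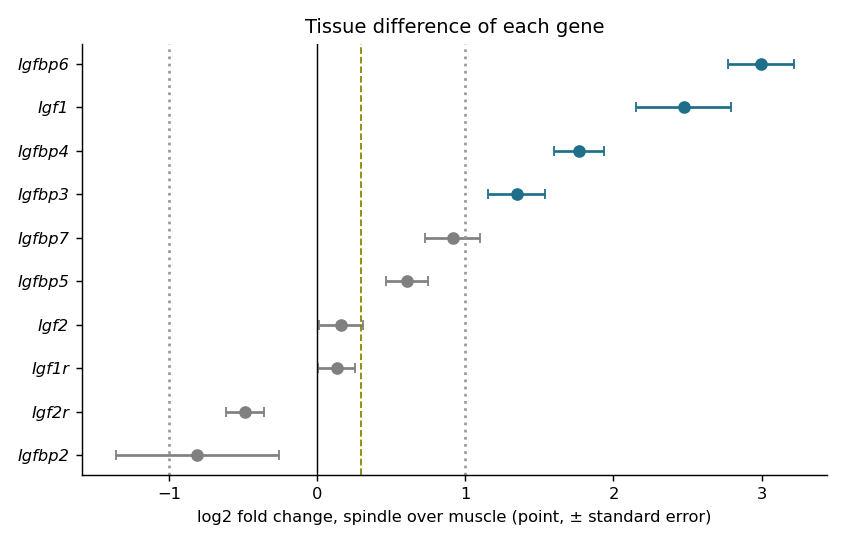
Log2 fold change of each of the 10 genes, spindle over muscle, from edgeR (points, with bars of ± 1 standard error; 5 spindle and 6 muscle libraries). Blue points are the 4 called genes, gray points the 6 others; dotted lines mark -1 and 1, and the dashed line marks the median of all genes, 0.29. Igfbp6, at 2.99, and Igf1, at 2.47, lie farthest to the right, and Igfbp2 has the widest bar. With the median gene set to 0, every point moves left by 0.29 and those of Igf2 and Igf1r fall below 0.

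Total counts ranged from 8354260 (spindle 9) to 23430654 (muscle 16), and the smallest raw count of any of the 10 genes in any library was 31. Markers checked the labels: 7 of 8 intrafusal fiber markers, slow and developmental myosins among them, and 11 of 11 perineurial (capsule) markers were called higher in spindles, and of 9 fast extrafusal markers 5 were called lower and 1, Myh4, higher (3.47 on the log2 scale). Some of these markers, such as Myl2, Slc2a1 and Gli1, were reported by the paper as higher in these same libraries, so for them the check is not independent. Along the first principal component (48.7% of variance) spindle 16 (-2.28) and muscle 12 (22.9) stood nearest to the other tissue, with the other spindles at -105 to -95.0 and the other muscles at 72.9 to 80.7. Odorant receptor genes, silent in most tissues, summed to 144 to 228 CPM in spindles 9, 10, 12 and 13, 17.2 in spindle 16 and 9.22 to 63.3 in muscle. Mitochondrial genes took 22.6% to 38.2% of spindle reads and 16.7% to 24.8% of muscle reads. Where leaving out these libraries changes a call of any of the 10 genes, the value without them is given. Spindles 10, 12 and 13 were left out together and spindle 9 only by itself. No fit left out spindles 9, 10, 12 and 13 at once.

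The promoters of the 4 called genes are shown because these genes carry the tissue difference. Each line is the 250 bases before the RefSeq start on the gene's own strand (GRCm38.p6, sequences from RefSeq), with matches to a motif in capitals. Igf1 is chr10:87860861-87861110 on the plus strand, Igfbp3 is chr11:7213924-7214173 on the minus strand, Igfbp4 is chr11:99040994-99041243 on the plus strand and Igfbp6 is chr15:102143936-102144185 on the plus strand.
Igf1: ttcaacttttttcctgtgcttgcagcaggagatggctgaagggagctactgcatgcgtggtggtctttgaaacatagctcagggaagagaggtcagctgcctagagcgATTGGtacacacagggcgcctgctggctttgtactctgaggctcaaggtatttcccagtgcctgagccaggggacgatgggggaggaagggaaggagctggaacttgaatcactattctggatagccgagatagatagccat
Igfbp3: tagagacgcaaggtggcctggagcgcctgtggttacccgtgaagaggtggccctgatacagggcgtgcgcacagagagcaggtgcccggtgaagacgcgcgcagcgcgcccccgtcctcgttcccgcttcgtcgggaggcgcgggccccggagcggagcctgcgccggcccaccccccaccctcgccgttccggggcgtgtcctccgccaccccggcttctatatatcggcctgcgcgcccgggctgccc
Igfbp4: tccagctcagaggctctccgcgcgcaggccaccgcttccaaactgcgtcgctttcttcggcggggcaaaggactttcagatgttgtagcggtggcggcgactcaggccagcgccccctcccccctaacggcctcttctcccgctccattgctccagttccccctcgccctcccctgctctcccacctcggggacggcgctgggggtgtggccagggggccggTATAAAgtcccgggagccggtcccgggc
Igfbp6: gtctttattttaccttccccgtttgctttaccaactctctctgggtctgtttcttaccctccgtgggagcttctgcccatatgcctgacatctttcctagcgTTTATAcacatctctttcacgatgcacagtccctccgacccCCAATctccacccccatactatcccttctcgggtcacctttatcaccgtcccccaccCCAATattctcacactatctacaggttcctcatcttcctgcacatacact
Both strands were searched for 6 motifs: the TATA box, the CCAAT box, the GC box, the E-box, the forkhead motif and the AP-1 motif. The TATA box (TATAAA) was found in the Igfbp4 window and, on the other strand, in the Igfbp6 window, and it occurs in 12.4% of 32851 RefSeq windows of the same length. The CCAAT box was found in Igf1, where it lies on the other strand, and at 2 places in Igfbp6, and it occurs in 33.8% of windows. The Igfbp3 window held none of the 6 motifs. The GC box (GGGCGG), present in 32.7% of all windows, was in none of these 4 windows. Among the genes that were not called, it was in windows of Igf2, Igf1r, Igf2r, Igfbp2 and Igfbp7 and not in that of Igfbp5. Igf2 and Igfbp2 each have more than 1 window, and some of those lack it. The E-box (CACGTG, in 6.02% of windows) was not in these 4 windows. Nor were the forkhead motif (TGTTTAC, in 3.17%) and the AP-1 motif (TGACTCA, in 4.46%). The GC content of the 4 windows was 52.8% for Igf1, 73.2% for Igfbp3, 69.2% for Igfbp4 and 49.6% for Igfbp6, beside a median of 52.4%. The RefSeq start of Igfbp6 lies upstream of the GENCODE start, so its window may not be the one next to the transcripts counted here. The Igf1 window lies within the Igf1 gene, past its GENCODE start at 10:87858265, so it does not precede the first annotated start. These matches describe letters in a window and were not tested for binding.

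Igf1, the ligand that drives IGF1R signaling in muscle, was upregulated in spindles. Its normalized count, the read count scaled to a common library size, was 979, 463, 482, 937 and 403 in spindles 9, 10, 12, 13 and 16. In muscle it ran from 69.5 to 197 with a median of 99.0. Spindles 9 and 13 were about as high as each other and stood above the other three spindles, and the lowest spindle lay above the highest muscle, muscle 12. The means were 653 ± 281 (SD, n = 5) in spindle and 117 ± 46.6 (SD, n = 6) in muscle, a log2 fold change of 2.47 (SE 0.32, 5.55-fold, edgeR adjusted p = 1.06e-04). The spindle values scattered more for Igf1, relative to their mean, than for the other called genes, with a coefficient of variation of 43.0%. The start of Igf1 (10:87858265-87937042, plus strand, GRCm38) overlaps the antisense gene Igf1os in span, with no shared exonic base. Igf1os had between 0 and 8.97 normalized counts in every library.

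Igf2, the other ligand and an imprinted gene, did not pass the test. Its normalized count was 412, 640, 515, 434 and 629 in spindles 9, 10, 12, 13 and 16, and in muscle it ran from 392 to 577 with a median of 450.2. The ranges overlapped, and spindles 10 and 16 were high in the same mice as muscles 10 and 16. The means were 526 ± 106 (SD, n = 5) and 473 ± 82.8 (SD, n = 6), and the log2 difference was 0.16 (SE 0.15, 95% interval -0.13 to 0.45, edgeR adjusted p = 0.397). It was -0.13 with the median gene set to 0 (adjusted p = 0.464) and 0.49 with library size as the only scaling (adjusted p = 0.0154). Of the 5723 exonic bases of Igf2 (7:142650766-142666816, minus strand), 3694 are also exonic in another gene model, most of them in Gm49394, a protein-coding model on the same strand, and the rest in the antisense Igf2os, so how the reads were divided between them is uncertain.

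Igf1r, the signaling receptor, did not pass the test. The normalized count of Igf1r was 822, 776, 659, 544 and 687 in spindles 9, 10, 12, 13 and 16, beside 528 to 722 in muscle with a median of 647. The ranges overlapped, with spindles 9 and 10 above every muscle, and mouse 13 gave the lowest value in each tissue. The means were 698 ± 108 (SD, n = 5) and 636 ± 66.5 (SD, n = 6), and the log2 difference was 0.13 (SE 0.13, 95% interval -0.11 to 0.38, edgeR adjusted p = 0.410). It was -0.16 with the median gene set to 0 (adjusted p = 0.296) and 0.45 with library size as the only scaling (adjusted p = 0.0130).

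Igf2r, the clearance receptor for IGF2, was the 1 member lower in spindles by adjusted p, at less than the fold needed for a call. It was measured at a normalized count of 684, 699, 636, 591 and 868 in spindles 9, 10, 12, 13 and 16, beside 782 to 1163 in muscle with a median of 979.6. Only spindle 16 reached into the muscle range, above muscle 12, and each spindle was below the muscle of its own mouse. The means were 696 ± 105 (SD, n = 5) and 976 ± 128 (SD, n = 6), a log2 fold change of -0.49 (SE 0.13, edgeR adjusted p = 0.00691). With library size as the only scaling it was -0.17 (adjusted p = 0.328), and without spindles 10, 12 and 13 it was -0.33 (adjusted p = 0.227). The median over the abundant genes was -0.22. Airn, a noncoding RNA on the other strand that overlaps Igf2r in span and shares no exonic base with it, ran from 48.2 to 83.4 normalized counts over the 11 libraries.

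**Figure D2:**
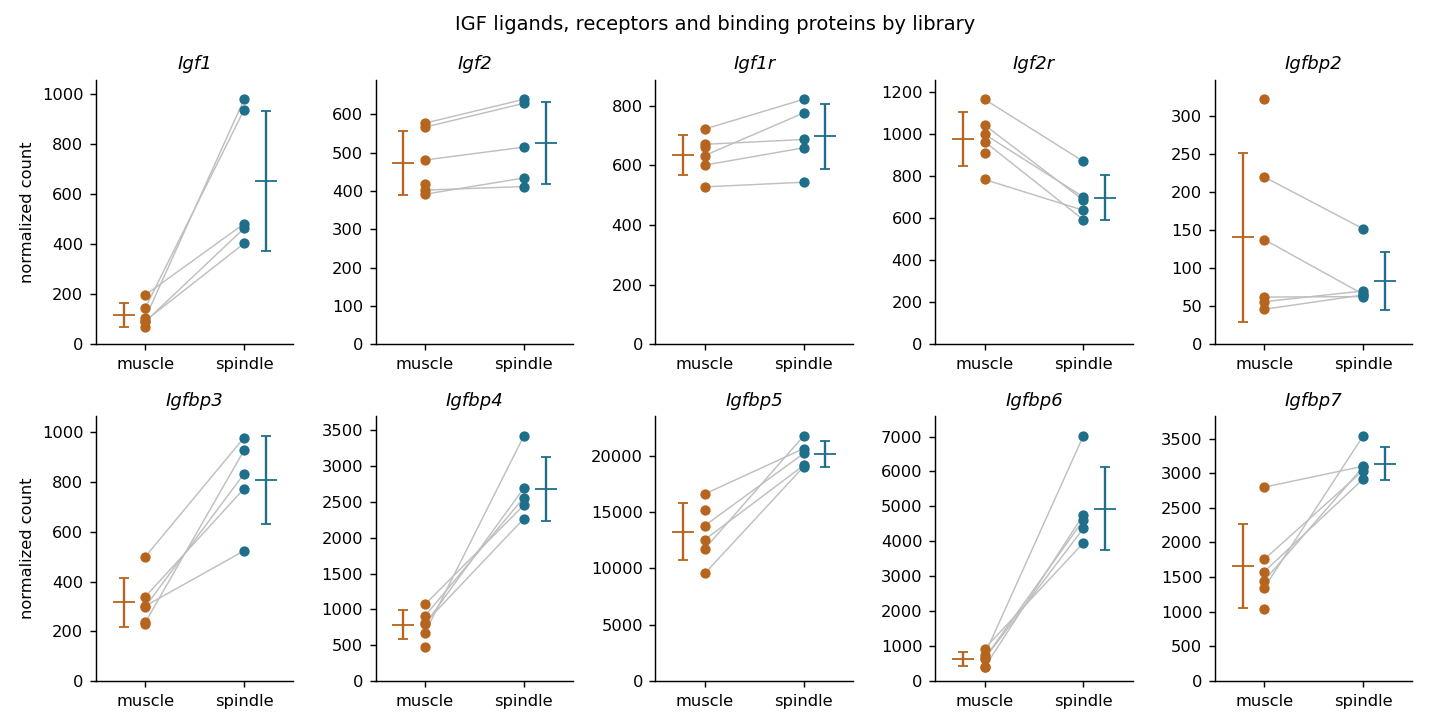
Normalized count of each gene in each library on a linear axis from 0 (6 muscle libraries in brown, 5 spindle libraries in blue). Gray lines join the 2 libraries of a mouse, and the crosses with bars at the sides are means ± SD. For Igf1, Igfbp3, Igfbp4, Igfbp5, Igfbp6 and Igfbp7 every spindle point is above every muscle point, and for Igf2, Igf1r, Igf2r and Igfbp2 the groups overlap.

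Of the 6 binding protein genes, 3 were called higher in spindles and 5 were higher by adjusted p alone. Igfbp6, whose product prefers IGF2 over IGF1, had the largest difference of the 10 genes. In normalized counts Igfbp6 stood at 7016, 4604, 3949, 4368 and 4754 in spindles 9, 10, 12, 13 and 16, and in muscle it ran from 387 to 923 with a median of 637. Spindle 9 stood above the other spindles, and the groups were far apart. The means were 4938 ± 1200.3 (SD, n = 5) and 620.2 ± 207 (SD, n = 6), a log2 fold change of 2.99 (SE 0.22, 7.97-fold, edgeR adjusted p = 2.75e-08). Igfbp6 is a short gene (15:102144362-102149511, plus strand) with 1112 exonic bases.

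Igfbp4, a binding protein that restrains IGF action until it is cleaved by the protease PAPP-A, was called higher. The normalized count of Igfbp4 was 3422, 2693, 2456, 2268 and 2562 in spindles 9, 10, 12, 13 and 16, and in muscle it ran from 467 to 1069 with a median of 801. Spindle 9 was again the highest and muscle 12 the highest of its group, and the groups did not overlap. The means were 2680.4 ± 443 (SD, n = 5) and 787 ± 205 (SD, n = 6), a log2 fold change of 1.77 (SE 0.17, 3.40-fold, edgeR adjusted p = 2.21e-07).

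Igfbp3, the main carrier of IGFs in blood, was also called higher. Its normalized count was 834, 928, 979, 524 and 774 in spindles 9, 10, 12, 13 and 16, and in muscle it ran from 228 to 499.8 with a median of 300.2. Spindle 13 was the lowest spindle and lay only just above muscle 12, the highest muscle. The means were 808 ± 178 (SD, n = 5) and 317 ± 99.1 (SD, n = 6), a log2 fold change of 1.35 (SE 0.19, 2.54-fold, edgeR adjusted p = 3.82e-05). Igfbp3 and Igfbp4 are both on chromosome 11 (11:7206086-7213923, minus strand, and 11:99041244-99054392, plus strand), far from each other.

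Igfbp7, a secreted protein of vessels and matrix, was higher in spindles just under the fold for a call. In normalized counts Igfbp7 stood at 3538, 2914, 3101, 3091 and 3039 in spindles 9, 10, 12, 13 and 16, and in muscle it ran from 1036 to 2799 with a median of 1514. The spindles were tightly grouped, and muscle 12, the highest muscle, stood well above the other muscles and a little below the lowest spindle. The means were 3137 ± 236 (SD, n = 5) and 1661 ± 608 (SD, n = 6), a log2 fold change of 0.92 (SE 0.19, edgeR adjusted p = 9.28e-04). Igfbp7 was called without muscle 12 (1.13), without spindle 16 and muscle 12 (1.14) and with library size as the only scaling (1.22). Igfbp7 (5:77349240-77408041, minus strand) shares 85 of its 1209 exonic bases with Polr2b, on the other strand.

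Igfbp5, a matrix-bound binding protein made by muscle cells and fibroblasts, had the highest normalized counts of the 10 genes in both tissues. Its normalized count was 20218, 21771, 20649, 19157 and 19032 in spindles 9, 10, 12, 13 and 16, and in muscle it ran from 9555 to 16623 with a median of 13180. The groups did not overlap, and the spindle values were the least scattered of the 10 genes, with a coefficient of variation of 5.61%. The means were 20165 ± 1131 (SD, n = 5) and 13254 ± 2530.2 (SD, n = 6), a log2 fold change of 0.61 (SE 0.14, edgeR adjusted p = 0.00272), which is below the fold for a call. With the median gene set to 0 the log2 fold change was 0.31 (adjusted p = 0.0756), and without spindles 10, 12 and 13 it was 0.57 (adjusted p = 0.0668).

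Igfbp2, which also prefers IGF2, had the lowest mean normalized count of the 10 genes over all 11 libraries, although Igf1 was lower in muscle, and its coefficient of variation was the largest in each tissue (46.5% in spindle and 78.9% in muscle). The normalized count of Igfbp2 was 152, 62.6, 69.9, 64.7 and 65.7 in spindles 9, 10, 12, 13 and 16, and in muscles 9, 10, 11, 12, 13 and 16 it was 220, 61.9, 322, 55.9, 46.0 and 137. Spindle 9 was far above the other spindles, muscle 11 was the highest of all libraries, and the ranges overlapped. The means were 82.9 ± 38.5 (SD, n = 5) and 140 ± 111 (SD, n = 6), and the log2 difference of -0.81 (SE 0.55, 95% interval -1.89 to 0.27, edgeR adjusted p = 0.261) did not pass the test. It was -0.38 without muscle 11, the library with no spindle of the same mouse, and -0.20 with the mouse as a block. Igfbp2 (1:72824503-72852474, plus strand) and Igfbp5 (1:72857932-72874884, minus strand) are neighbors, 5457 bases apart and on opposite strands.

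Within mice, 8 of the 10 genes had a higher value in spindle than in muscle in 5 of 5 mice, Igf2r had a lower value in 5 of 5, and Igfbp2 was split, 3 higher and 2 lower. The share over all genes was not computed for these counts, so they are a description only. The 8 include Igf2 and Igf1r, whose within-mouse log2 ratios were no more than 0.15 and 0.29 and whose direction in the fit turns with the median gene set to 0. The ratio for Igfbp6 was 3.24, 2.83, 2.10, 2.80 and 3.62 in mice 9, 10, 12, 13 and 16. For Igf1 it was 3.23, 2.36, 1.29, 2.69 and 2.10 in the same order. Mouse 12 gave the smallest of these ratios for both genes, and it gave the smallest absolute ratio for 6 of the 10 genes. For Igfbp7 its ratio was 0.15, beside 0.79 to 1.39 in the other mice. Muscle 12 was the highest muscle library for all 6 genes whose groups did not overlap, whereas spindle 16, the spindle nearest to muscle in the principal component, was the lowest spindle for 2 of these 6. An exact two-sided permutation test within 5 mice cannot give a p below 0.062, so none is given.

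**Figure D3:**
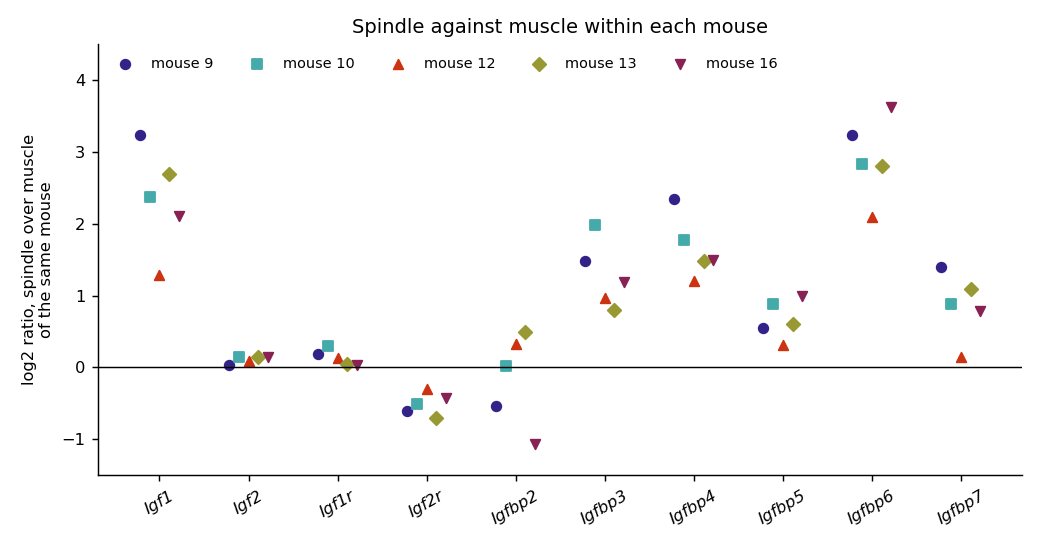
Log2 ratio of spindle over muscle of the same mouse for each gene, with a marker shape and color for each of the 5 mice that gave both tissues. Mouse 12 (upright red triangles) lies lowest for Igf1, Igfbp4, Igfbp5, Igfbp6 and Igfbp7; Igf2r is below 0 in every mouse, and Igfbp2 lies on both sides of 0. The points of Igf2 and Igf1r lie close to 0, and their direction in the fit turns with the median gene set to 0.

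To compare levels between genes, counts were divided by merged exon length and scaled to TPM, a unit of relative abundance per transcript length. In spindles the order of mean TPM was Igfbp6 (617 ± 126), Igfbp5 (473 ± 76.9), Igfbp7 (362 ± 34.5), Igfbp4 (85.0 ± 14.8), Igfbp3 (36.7 ± 10.9), Igf2 (13.2 ± 4.31), Igf2r (10.6 ± 2.78), Igf1 (8.86 ± 2.67), Igfbp2 (6.14 ± 2.27) and Igf1r (5.86 ± 1.28; SD, n = 5). Neighbors overlapped over libraries except from Igfbp7 to Igfbp4, from Igfbp4 to Igfbp3 and from Igfbp3 to Igf2, although Igfbp6 was above Igfbp5 and Igfbp5 above Igfbp7 within each of the 5 libraries. In muscle the order was Igfbp5 (278 ± 65.4), Igfbp7 (171 ± 57.7), Igfbp6 (69.6 ± 23.2), Igfbp4 (22.3 ± 5.85), Igf2r (13.2 ± 2.55), Igfbp3 (12.8 ± 4.01), Igf2 (10.2 ± 1.19), Igfbp2 (9.86 ± 8.24), Igf1r (4.76 ± 0.76) and Igf1 (1.49 ± 0.62; SD, n = 6). Here only the steps from Igfbp7 to Igfbp6, from Igfbp6 to Igfbp4 and from Igf1r to Igf1 had ranges that did not overlap. Igfbp6 thus ranked 3 in muscle and 1 in spindle, and Igf1 ranked 10 and 8.

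The make-up of binding protein mRNA differed between the tissues, and as a ratio within each library it does not depend on the scaling between libraries. Igfbp6 made up 46.0%, 37.2%, 33.9%, 37.8% and 39.5% of the summed TPM of the 6 binding protein genes in spindles 9, 10, 12, 13 and 16, and 8.63% to 15.0% in muscle. Igfbp5 made up 24.5% to 32.9% in spindles and 42.1% to 61.9% in muscle. Neither pair of ranges overlapped. Igfbp7 (means 23.1% and 30.2%), Igfbp4 (5.35% and 4.01%), Igfbp3 (2.30% and 2.24%) and Igfbp2 (0.386% and 1.80%) had overlapping shares, spindle first. The summed TPM itself was 1580 ± 214 (SD, n = 5) in spindles and 564 ± 120 (SD, n = 6) in muscle, with no overlap. Unlike the shares, this sum depends on the scaling between libraries, and TPM was computed without the TMM factors.

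**Figure D4:**
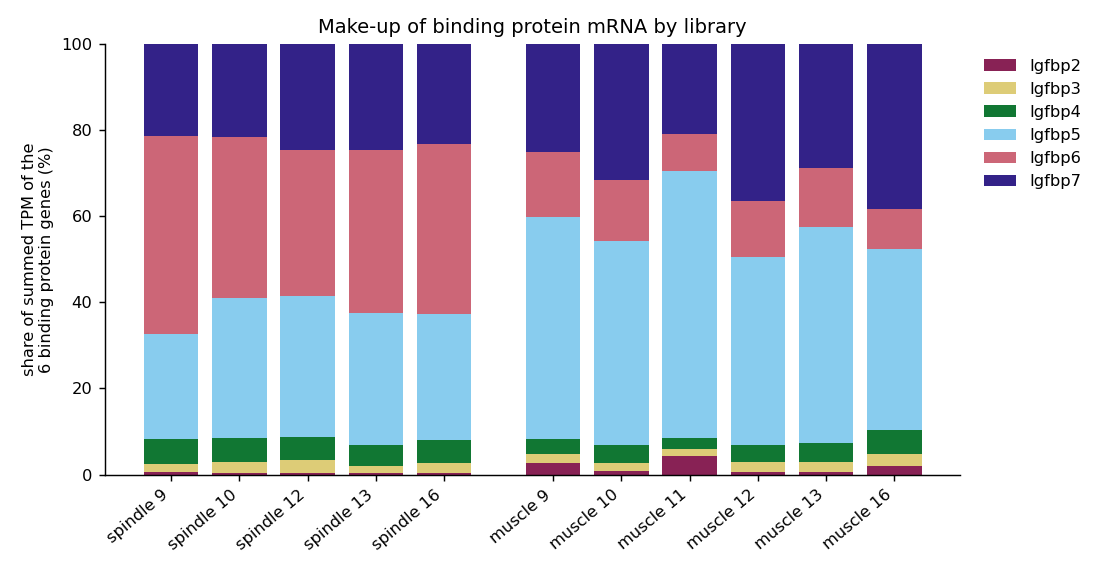
Share of each of the 6 binding protein genes in their summed TPM (percent, stacked to 100), 1 bar per library, with the 5 spindle libraries at left and the 6 muscle libraries at right. The Igfbp6 band is 33.9% to 46.0% of each spindle bar and 8.63% to 15.0% of each muscle bar, and the Igfbp5 band is narrower in the spindle bars.

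The ligands shifted too. Igf1 made up 27.0% to 57.9% of the summed TPM of both ligands in spindles and 8.25% to 19.1% in muscle. Relative to its receptor, Igf1 stood at 0.99 to 2.92 times the TPM of Igf1r in spindles and 0.18 to 0.55 times in muscle. Igf2r stood at 1.50 to 2.28 times Igf1r in spindles and 2.35 to 3.29 times in muscle. None of these 3 pairs of ranges overlapped, and the Igf2 part of the first rests on a gene whose exons are shared. The summed binding protein TPM per ligand TPM overlapped between tissues, at 61.0 to 80.4 in spindles and 34.8 to 61.0 in muscle. All of these are mRNA levels.

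Over the 11 libraries, the genes whose log2 levels followed each member most closely were ranked by Pearson correlation among the 10671 genes that averaged 50 or more normalized counts. For a called member such a value largely reflects the tissue difference that the points share, and it is given as a description. For Igf1 they were Lum (lumican, a matrix proteoglycan, r = 0.987) and Mfap5 (a microfibril protein, r = 0.985). For Igfbp6 they were Fbln1 (fibulin 1, r = 0.997), itself higher in spindles by 2.93 on the log2 scale, and Scrn1 (r = 0.990). For Igfbp4 they were Ndrg1 (r = 0.993) and Sfrp5 (a secreted Wnt inhibitor, r = 0.989), for Igfbp3 Mmp14 (a membrane matrix metalloproteinase, r = 0.983) and Sparcl1 (r = 0.982), for Igfbp7 Tpm4 (a tropomyosin, r = 0.980) and Sh3bgrl (r = 0.977), and for Igfbp5 Ndn (r = 0.942). Among the members that were not higher, Igf2r was closest to Ralgapb (r = 0.970) and D5Ertd579e (r = 0.963), Igf1r to Tet1 (r = 0.951) and Usp20 (r = 0.912), Igf2 to Enpp1 (r = 0.912) and Cttnbp2nl (r = 0.906), and Igfbp2 to Nova1 (r = 0.894) and Bloc1s5 (r = 0.873).

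Markers of several other cell types were higher in spindles, as these genes were. Of 14 markers of fibroblasts and fibro-adipogenic progenitors, 7 were called higher in spindles, and their summed normalized counts were 59881 to 93494 in spindles and 26199 to 60147 in muscle. Of that list Pdgfra rose by 1.34 and Cd34 by 1.17 on the log2 scale. Of 8 endoneurial fibroblast markers 5 were called higher, with sums of 4737 to 10564 in spindles and 1348 to 2295 in muscle, and Etv1 rose by 2.51 and Osr2 by 2.17. All 11 macrophage markers were called higher, with sums of 2222 to 5022 in spindles and 823 to 1607 in muscle, and Csf1r rose by 1.81 and C1qc by 1.90. The perineurial sums were 5232 to 8451 and 163 to 348. Of 12 markers of myelinating Schwann cells 11 were called higher, with sums of 11057 to 20736 and 1662 to 5657. Of 10 neuron markers 7 were in the table, without Nefh, Nefl and Nefm. Of those 7, 6 were called higher, with sums of 464 to 719 and 60.7 to 161. No marker of these 6 lists that was in the table was at 0 in a whole tissue. Muscle 12, the highest muscle for Igf1 and 5 binding proteins, had the highest muscle sum in each of these lists but that of myelinating Schwann cells, where muscle 10 (5657) was above it (4298). The order of the spindles differed between lists. Spindles 9 and 13, the highest for Igf1, had the highest macrophage sums, 5022 and 3944. Their fibroblast sums were 91488 and 66363, and the highest was that of spindle 16 (93494), the lowest spindle for Igf1. Lum and Mfap5, the genes most alike to Igf1, are both in the fibroblast list. Spindle 9, the highest for Igfbp6, had the highest endoneurial and perineurial sums, and spindle 10 the highest Schwann cell and neuron sums. Endothelial markers, 0 of 12 called and a median of 0.08, overlapped at 8227 to 16486 and 9669 to 16679. Sums for pericytes and smooth muscle were lower in spindles (39784 to 66664 and 66789 to 90002), although 2 of 11 markers were called higher and 0 lower. Most of each sum was 1 gene, Des (means of 41169 and 68781), named after its values were seen. The median log2 fold change of that list was -0.02, so its sum does not stand for the list as a whole. Adipocyte sums were lower too (13712 to 18878 and 19683 to 24472), with 0 markers called. Nearly all of each sum was Lpl (means of 11720 and 14386) and Plin4 (4000 and 6929). The other adipocyte markers in the table averaged 5.4 normalized counts or fewer, so the sum says little about them. The sums for satellite cells and for tendon overlapped. Of 7 satellite cell markers 2 were called higher and 0 lower, and by adjusted p alone 2 were higher and 2 lower. In that list Myf5 differed by 2.68 and Cdh15 by -0.55 on the log2 scale. Of 8 tendon markers 0 were called. The part of these cell types in the differences of the IGF genes was not tested.

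Beyond the 10 genes, 96 of 100 genes in 7 lists of the IGF pathway were in the table, of which 13 were called higher and 3 lower in spindles, with a median log2 fold change of -0.07. By adjusted p alone 22 were higher and 20 lower. The share called higher is close to the 11.0% over all genes, of which 1.80% were called lower. Over the abundant genes the shares were 5.22% and 3.21%, but several called pathway genes, Igf2bp2 and Esm1 among them, lie below that level. Most of the calls lay in the lists of proteases and of proteins related to the binding proteins.

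Among ligand partners and the insulin family, 2 of 9 genes were called higher and 1 lower. Igf2bp2, which binds Igf2 mRNA, was higher by 1.39 on the log2 scale (edgeR adjusted p = 0.0013), at 51.3 ± 12.0 and 19.4 ± 6.84 normalized counts (SD, n = 5 and 6). Igf2bp1, named here because it completes the count, was called on few reads, with 14 to 25 reads in spindles 9, 10, 12 and 13, 0 in spindle 16, 7 in muscle 12 and 0 in the other muscles. Igfals, the acid-labile subunit that holds IGFs in a complex with IGFBP3, was lower by -2.27 on the log2 scale (adjusted p = 0.0119), with 0 in spindle 9 and its highest value, 172, in muscle 13. The insulin receptor gene Insr was lower by -0.56 (adjusted p = 0.0048), under the fold for a call. H19, a noncoding RNA 72622 bases from Igf2 and imprinted with it, was added after its values were seen and differed by -0.47 (adjusted p = 0.0222), at 6494 ± 868 and 8988 ± 2051 normalized counts.

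Of the 14 genes for proteases that cut IGF binding proteins and their inhibitors, 6 were called higher and 1 lower. Htra1, a secreted serine protease, was higher by 1.98 on the log2 scale (edgeR adjusted p = 2.89e-08), at 1037 ± 118 and 262 ± 79.9 normalized counts (SD, n = 5 and 6). Mmp2, a gelatinase, was higher by 1.19 (adjusted p = 6.99e-05). Htra3 was higher by 0.86 (adjusted p = 1.59e-05), under the fold for a call. The other calls, named after their values were seen, were Adam12 (1.95), Mmp19 (1.35), Htra4 (1.62) and Pappa2 (3.04) among the higher, the last with at most 18 reads in a library, and Stc2 among the lower. Stc2 encodes stanniocalcin 2, an inhibitor of the PAPP-A protease, and fell by 1.61 on the log2 scale with groups that did not overlap (212 ± 79.6 and 642 ± 191 normalized counts). Pappa itself, also named after its values were seen, did not pass the test (0.41, adjusted p = 0.379).

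Of 7 genes for proteins that share a domain with the IGF binding proteins, 3 were called higher. Esm1, a secreted proteoglycan of endothelium, was higher by 4.49 on the log2 scale (edgeR adjusted p = 2.74e-09), at 171 ± 74.9 and 7.05 ± 3.51 normalized counts (SD, n = 5 and 6), with groups that did not overlap. Nov was higher by 1.64 and Wisp2 by 1.12, both matrix-associated proteins of the CCN family. Of 7 genes for cell surface partners of binding proteins none was called. By adjusted p alone 3 were higher, Lrp1 (0.79), Itgb3 (0.90) and Itga5 (0.72).

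The 3 lists of proteins inside the cell had medians below 0. Of 17 receptor adaptor genes 2 were called higher, Shc2 by 1.36 and, named after its values were seen, the scarce Shc3 by 1.64, while Sos2, a Ras exchange factor, was lower by -0.98 (edgeR adjusted p = 3.70e-05) and Grb2 by -0.82 (adjusted p = 1.99e-04), both under the fold for a call. Of 27 genes of PI3K, Akt and mTOR signaling 1 was called, lower, and by adjusted p alone 3 were higher and 9 lower. The called gene was Deptor, an inhibitory partner of mTOR, lower by -1.89 on the log2 scale (adjusted p = 5.75e-08), at 334 ± 62.7 and 1245 ± 306 normalized counts (SD, n = 5 and 6) with groups that did not overlap. Akt2, the Akt form linked to insulin action, was lower by -0.81 (adjusted p = 4.37e-05) and Tsc1, an mTOR repressor, by -0.83 (adjusted p = 1.71e-04). Of 15 FoxO genes and their atrophy targets none was called, and 5 were lower by adjusted p alone, among them Foxo4 (-0.94), Trim63 (-0.83), a ubiquitin ligase of muscle breakdown, and Fbxo31 (-0.55). The medians of these 3 lists, -0.32, -0.27 and -0.25, lie near the median of -0.22 over abundant genes. With library size as the only scaling the median over all genes moved up by 0.31, about the size of these medians.

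**Figure D5:**
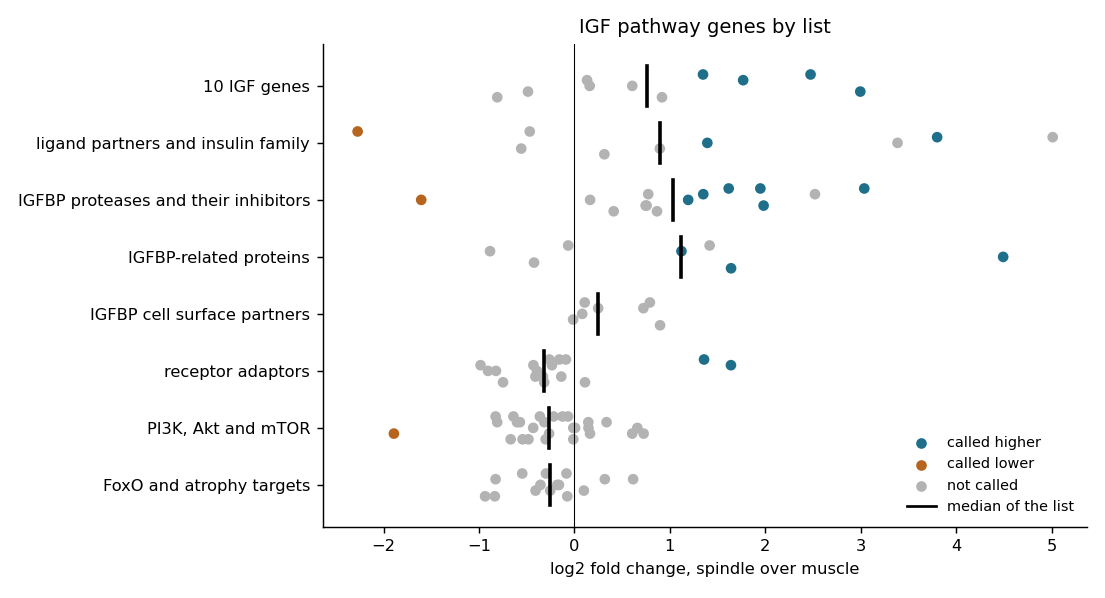
Log2 fold change, spindle over muscle, of the 10 IGF genes and of each gene in 7 pathway lists (1 point per gene; blue, called higher; brown, called lower; gray, not called; black bars, medians of the lists). The medians of the 4 upper lists lie between 0.76 and 1.12, and those of the 3 lowest between -0.32 and -0.25. The median of the ligand partner list, 0.89, includes Ins1 and Ins2, named after their values were seen. These 2 averaged 1.7 and 2.1 normalized counts, under the minimum for a call.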

How the data were processed

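RNA-seq of polyadenylated RNA covered 5 spindle and 6 muscle libraries, grouped by the tissue in their labels. The authors mapped single-end reads to GRCm38 with STAR 2.4.2a and counted reads per GENCODE gene. The deposited counts are raw reads per gene and list each gene that reached 5 reads in some library. How the counting treated strand and overlapping genes is not given in the sources used here. The table's 22 other per-sample columns, made by the authors with DESeq2 1.16.1, and 6 columns of the authors' own comparison (fold changes, p-values) were not used.

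All 22384 genes were fitted here with edgeR 4.0.16 in R 4.3.3 (TMM, robust quasi-likelihood, no mouse term), and p-values were adjusted over all of them. Normalized counts are counts divided by the TMM effective library size and scaled to its geometric mean. The SE was derived from the F statistic. Correlations used log2 CPM with a prior count of 2. TPM used merged exon lengths of GENCODE M21, an earlier release than the authors counted with, known for 21302 genes (95.2%). Plots were made with matplotlib 3.10.9. The test was checked on simulated data. Total counts of 8354260 to 23430654 left at least 31 reads for each of the 10 genes in each library.

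The genes and lists were chosen with earlier results of these data known. Named genes are the 10 genes, the 2 most alike genes for each (1 of those for Igfbp5 is not reported here), the 3 genes with the smallest adjusted p in each pathway list and up to 2 in a marker list, and genes outside this are said to be so or were named for the label check. Same-numbered libraries were taken to come from 1 mouse, since the paper obtained both tissues from each mouse and the labels carry a number. Their deviations correlated at 0.08 to 0.31 over 12557 genes. Every spindle but that of mouse 9, at 0.08, correlated best with the muscle of the same number. No 2 libraries were copies of each other. Alternatives were DESeq2 1.42.0, limma-voom (limma 3.58.1), other scalings, a count filter, a mouse block, thinning and leaving out libraries.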

Additional observations from a re-analysis of the deposited data

Results flagged for a closer look

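Of 20 groups tested (10 genes in each tissue), 2 held a library outside the spread of the others by Dixon's test at the 95% level, where chance gives about 1 in 20. Both were spindle 9, the library with the lowest total count and the highest mitochondrial share. Its Igfbp2 normalized count was 151.65, with the nearest other spindle at 69.9. Its Igfbp6 normalized count was 7015.5, with the nearest other spindle at 4754. Without spindle 9 the log2 difference of Igfbp2 was -1.11 (edgeR adjusted p = 0.156), and Igfbp6 was called in every fit that left out 1 library, at 2.83 to 3.14.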

How the results depend on the processing

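Igf1, Igfbp3, Igfbp4 and Igfbp6 stayed called higher under all 20 alternatives, at 2.18 to 2.82, 1.05 to 1.66, 1.47 to 2.08 and 2.70 to 3.29 on the log2 scale. With library size as the only scaling the median of all genes moved by 0.31, and setting the median gene to 0 moved it by -0.29. Igf2 then reversed to -0.13 and Igf1r to -0.16, neither past the test in edgeR (adjusted p = 0.464 and 0.296), whereas library size alone put both past adjusted p, at 0.49 and 0.45 (0.0154 and 0.0130). Igfbp7 was called at 1.22 with library size alone and at 1.14 without spindle 16 and muscle 12, and ranged from 0.80 to 1.13 when 1 library was left out. Of all genes, 2470 were called higher and 403 lower (86.0% higher), beside 3522 and 140 (96.2%) with library size alone and 1868 and 1207 (60.7%) with the median gene at 0. Without spindles 10, 12 and 13, 1576 genes were called higher. Pathway genes called lower numbered 3, but 10 with the median gene at 0, 5 without spindle 16 and muscle 12, and 3 to 5 when 1 library was left out. With the mouse as a block 4 members were called and 7 passed adjusted p, the same counts as without it, 2642 genes were called in place of 2873, and the log2 differences of Igf1, Igfbp6 and Igfbp7 were 2.32, 2.91 and 0.85. The causes of these changes were not tested. Igf2bp1 and Pappa2 were called on at most 25 and 18 reads in a library, whereas each of the 10 genes had at least 31.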
